A study of Sus scrofa with 8 samples.

Results

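The motile cilium axoneme genes were 44 genes chosen for their place in the moving cilium. They were found in the deposited count and TPM tables by pig gene name. Of the 44 genes, 42 matched one of the 22516 genes of the tables, 3 of them under a newer symbol (LRRC6 as DNAAF11, ARMC4 as ODAD2 and TTC25 as ODAD4). No identifier carried the name HYDIN or PIFO, and both were not analysed here. The 42 genes comprised 5 of the outer dynein arm, 7 of the inner dynein arm, 4 of dynein assembly, 2 of the docking complex, 4 of the molecular ruler and the nexin-dynein regulatory complex, 4 of the radial spoke, 6 of the central apparatus, 6 of the doublet lumen and its tether, and 4 others. All 42 had at least 1 TPM, the deposited level scaled for transcript length and library total, in every library, so that none was lost to the filter on low counts.

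To ask how the pheromone androstenone acts on the pig olfactory epithelium (OE), RNA was sequenced from the OE of 4 sows in estrus, crosses of a Landrace boar line with Rongchang sows, aged 8 months. In the androstenone treatment group, 2 sows had Boarmate, a commercial androstenone spray, applied to the nasal cavity, and the 2 control sows received no solution. The OE was taken from the left and the right side of each sow 30 min later, giving 4 libraries per group. The labels do not say which libraries shared a sow. Libraries were therefore tested as the replicates, with 2 animals behind each group, and the p-values are too small for a statement about sows. Since the controls received no spray, androstenone cannot be told apart from the carrier or the act of spraying.

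A motile cilium is built on the axoneme, a ring of doublet microtubules around a central pair. Outer and inner dynein arms walk along the neighbouring doublet, radial spokes and the central apparatus time their strokes, and the nexin-dynein regulatory complex turns sliding into bending. In the nose, such cilia are known from the multiciliated cells of respiratory epithelium, whereas the cilia of mammalian olfactory neurons lack dynein arms and do not beat. Multiciliated cells form when MCIDAS and CCNO start the making of many basal bodies and FOXJ1 and RFX factors switch on the axoneme genes.

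Some libraries stood apart before any comparison. Control 1 held 4178330 counts and the other 7 libraries 81580146 to 100685566. Its counts for the 42 genes ran from 42 (SPAG16) to 2106 (CFAP46), whereas no gene had fewer than 438 counts elsewhere. Control 4 carried bone RNA, with 7 bone genes summing to 97032 TPM, where no other library exceeded 7950 TPM, and had a TMM composition factor of 0.687. Of the markers of olfactory neurons, 11 of 12 matched, and they did not behave alike. RTP2 was listed at 0 throughout, and RTP1, GNG13, CNGA4 and KCNMB3 stayed at or below 0.0380, 0.493, 0.699 and 1.35 TPM. In their highest library, CNGA2 reached 5.01, GNAL 8.87, ADCY3 15.03, ANO2 50.4, NCAM1 78.4 and STOML3 190.2 TPM. For NCAM1 that library was control 4, which carried the bone RNA. STOML3 was highest in control 3, androstenone 2 and androstenone 1, as most axoneme genes were. In bulk tissue, fewer cells of a type and less RNA per cell cannot be told apart, which applies to every level below.

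The 42 genes shared a single pattern over the libraries that did not follow the groups. Their summed level was 2473, 1166, 7284 and 1169 TPM in control 1 to 4, and 5083, 5539.7, 1684 and 1474 TPM in androstenone 1 to 4. Control 3, androstenone 1 and androstenone 2 were thus high, and the highest library stood 6.25-fold above the lowest, both of them controls. The groups overlapped fully, with means of 3023 ± 2907 TPM in the controls and 3445 ± 2165 TPM in the androstenone treatment group (SD, n = 4), a log2 ratio of 0.19. Without control 3 this ratio was 1.10, and without both control 1 and control 4 it was -0.29.

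Gene by gene, the same order returned. In 41 of the 42 genes, control 3, androstenone 1 and androstenone 2 were the 3 highest libraries in TPM, an order found in 15.1% of all genes tested. The exception was DNAH5, a heavy chain of the outer arm, where control 1 came second. Control 3 was the highest of all 8 libraries in 39 genes, and androstenone 2 was highest for DNAAF3, RSPH9 and CFAP52. Control 1 came next after the 3 high libraries in 40 genes.

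**Figure D1:**
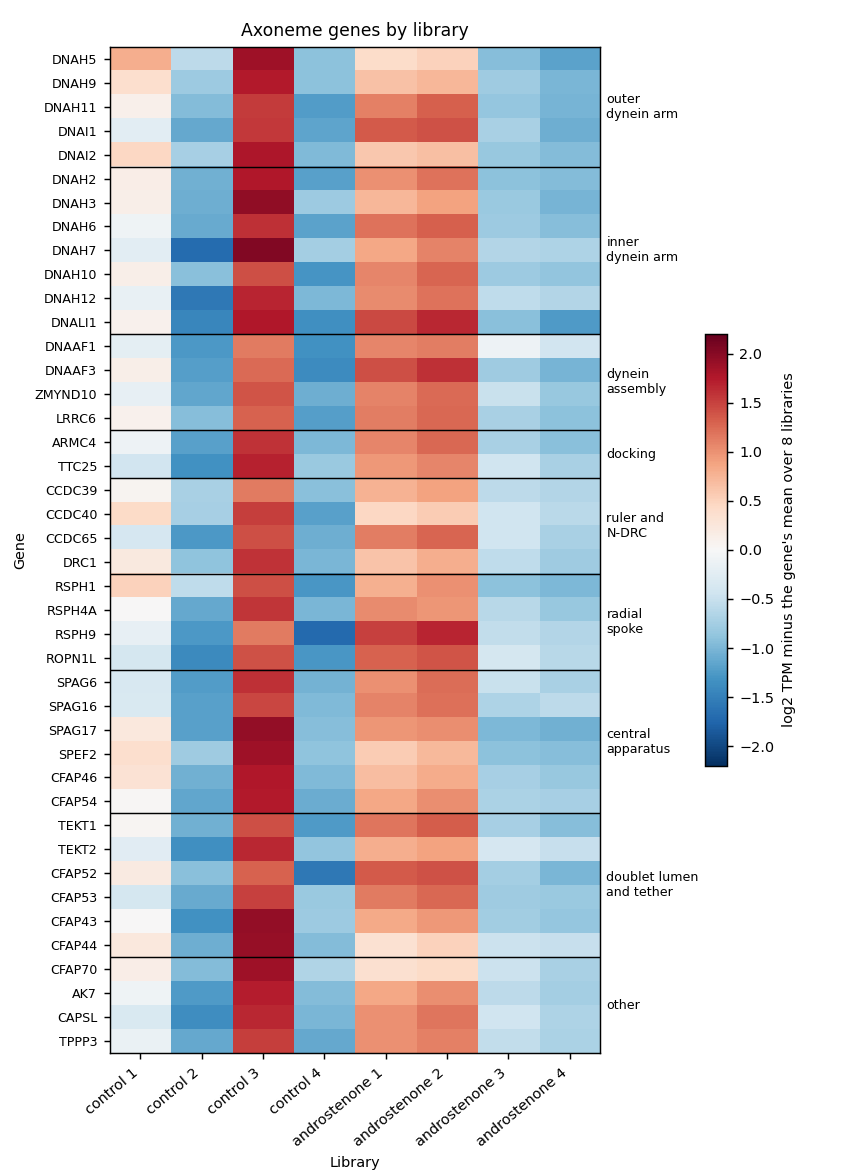
Level of each of the 42 axoneme genes (rows, by structural class) in each of the 8 libraries (columns), as log2 TPM minus that gene's mean over the libraries (colour scale). Control 3, androstenone 1 and androstenone 2 are the highest columns in 41 rows, and control 2, control 4, androstenone 3 and androstenone 4 are below the mean of the row in all 42 rows.

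The genes varied together more closely than they varied one by one. On the log2 scale of depth-scaled counts (CPM), the SD of a gene over the 8 libraries had a median of 1.10, from 0.82 in CCDC39 to 1.43 in DNALI1. After the mean profile of the other 41 genes was subtracted, the median SD was 0.23, from 0.064 in RSPH4A, a spoke head protein, to 0.52 in DNAH5. Over all genes tested, the median SD was 0.53 before and 1.18 after the same profile was subtracted. In the mean profile, centred on 0, control 1 to 4 stood at -0.13, -1.26, 1.48 and -0.85, and androstenone 1 to 4 at 1.07, 1.13, -0.60 and -0.83.

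The levels differed widely by gene and by structural class. Mean TPM over the 8 libraries ran from 7.18 in DNAH7, an inner arm heavy chain, to 566 in TPPP3, a tubulin-binding protein. The 9 dynein heavy chains lay between 7.18 and 36.9 TPM. Radial spoke genes had a median of 128 TPM per gene and assembly factors 124 TPM, against 19.2 TPM for inner arm genes and 23.2 TPM for genes of the central apparatus. TPM is scaled for length, and whether length still bears on these levels was not tested.

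**Figure D2:**
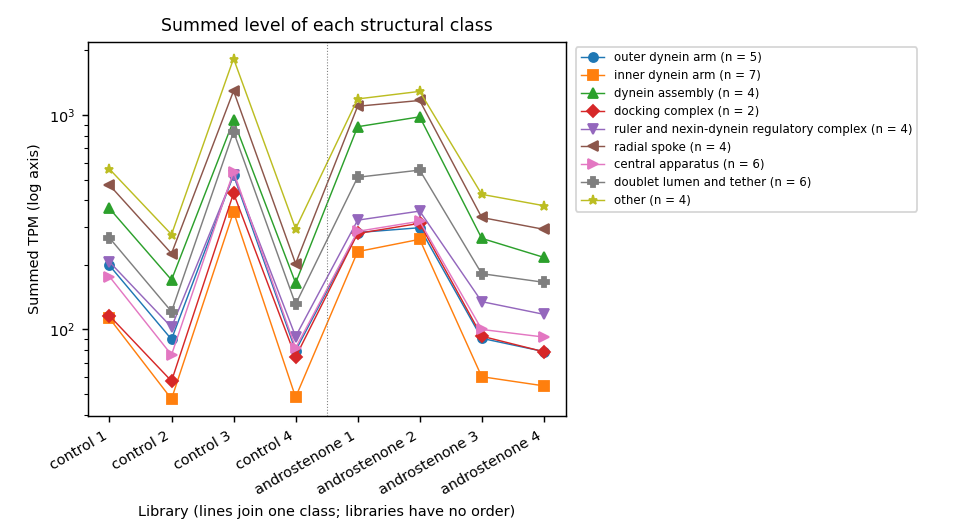
Summed TPM (log axis) of the genes of each structural class in each of the 8 libraries, with lines joining a class across libraries, which have no order. All 9 classes have their 3 highest values in control 3, androstenone 1 and androstenone 2, and span 5.66-fold to 7.52-fold between their highest and lowest library.

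None of the 42 genes differed between the groups at the cutoff of the study, an unadjusted p below 0.05 with a log2 fold change of 1 or more in size. With edgeR's quasi-likelihood test, 0 genes were called higher in the androstenone treatment group, where 2.04% of all 21318 genes tested were, and 0 were called lower, where 4.38% were. At an unadjusted p below 0.05 alone, 0 of the 42 genes passed, against 11.3% of all genes. After Benjamini-Hochberg adjustment 0 genes passed, as among all genes (0%), and the adjusted p of the 42 ran from 0.572 to 0.996. The likelihood ratio test of edgeR, DESeq2 and limma also called 0 of them. No gene had all libraries of a group above those of the other, which 3.89% of all genes had with androstenone higher and 2.64% with androstenone lower.

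The estimates were wide. The log2 fold changes of androstenone over control ran from -0.65 in DNAH5 to 1.12 in RSPH9, with 29 above 0 and 13 below, a median of 0.33 and a median of -0.02 over all genes tested. The interval of 2 standard errors held 0 for all 42 genes. For RSPH9, which had the smallest p, it reached from -0.38 to 2.62.

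Control 3 decided this count. Without it, all 42 log2 fold changes were above 0, from 0.07 in DNAH5 to 1.96 in RSPH9, with a median of 1.23 against -0.004 over all genes tested. Then 12 genes were called higher by edgeR at the unadjusted cutoff, against 4.48% of all genes. Control 3 was the highest control for all 42 genes, so leaving it out lowered the control mean of each. The common rise was therefore set by that choice, and the 12 and the 4.48% are not like for like. They were DNAH12, DNAAF1, ZMYND10, TTC25, CCDC65, RSPH9, ROPN1L, SPAG6, SPAG16, TEKT2, CAPSL and TPPP3. Their smallest adjusted p was 0.202, and nothing in the labels sets control 3 apart from the other controls.

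**Figure D3:**
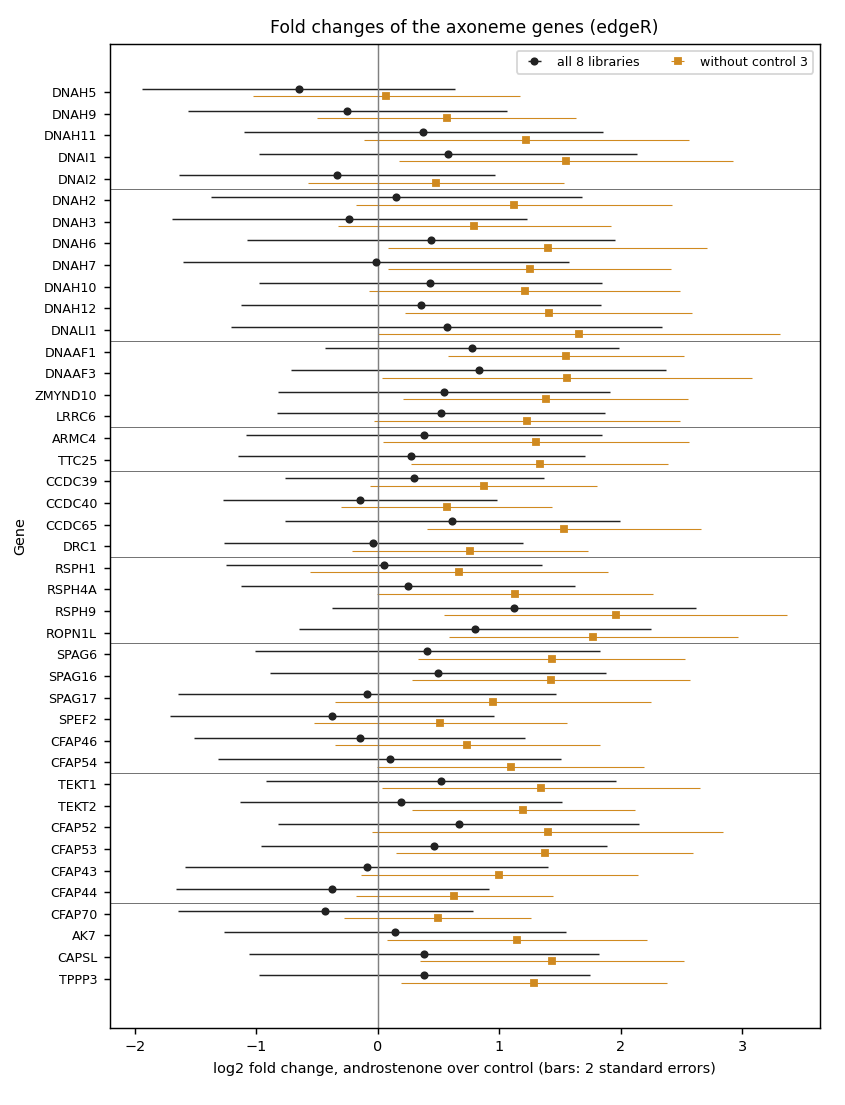
log2 fold change of each axoneme gene, androstenone over control, from edgeR with all 8 libraries (circles) and without control 3 (squares), with bars of 2 standard errors. With all libraries every bar crosses 0, and without control 3 every point lies above 0, from 0.07 to 1.96.

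For single genes, values are given in the order control 1, 2, 3 and 4, then androstenone 1, 2, 3 and 4. The chosen genes were, in each class, the one with the highest mean TPM and the one with the smallest p. Positions are those of RefSeq on Sscrofa11.1.

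Among the 5 outer arm genes, which carry the main motors of the beat, DNAI2, an intermediate chain on chromosome 12 from 6808966 to 6832767, was the most abundant. It stood at 99.3, 43.7, 249.9 and 37.3 TPM, then at 110.3, 115, 40.6 and 37.5 TPM. Control 1 lay close to androstenone 1 and 2 here, and control 3 was the highest by far. The log2 fold change of DNAI2 was -0.34 ± 0.65 (SE), with an unadjusted p of 0.619 in edgeR. DNAH5, on chromosome 16 from 3114267 to 3366189, stood at 24.5, 9.43, 51.2 and 7.58 TPM, then at 18.7, 20.1, 7.38 and 6.26 TPM. Both androstenone 1 and 2 lay below control 1 and above controls 2 and 4, and the edgeR p of DNAH5 was 0.339. The remaining outer arm genes DNAH9, DNAH11 and DNAI1 had log2 fold changes of -0.25, 0.37 and 0.58, none past the cutoff.

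The inner arm genes, whose motors shape the bend, included the most variable of the 42 genes, DNALI1, a light intermediate chain on chromosome 6 from 93612263 to 93621486. DNALI1 was 26.1, 9.03, 83.3 and 9.60 TPM, then 67.5, 77.4, 12.98 and 10.3 TPM. Its 3 high libraries were far above the rest, and control 2 and control 4 lay level with androstenone 4. The log2 fold change was 0.57 ± 0.89 (SE), with an adjusted p of 0.805 in edgeR. The 6 heavy chains of the inner arm had means from 7.18 TPM in DNAH7 to 36.9 TPM in DNAH2, and their log2 fold changes ran from -0.23 in DNAH3 to 0.44 in DNAH6.

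Assembly factors put dynein arms together in the cytoplasm before transport into the cilium, and all 4 had log2 fold changes above 0, from 0.52 in LRRC6 to 0.83 in DNAAF3. The most abundant, ZMYND10, on chromosome 13 from 32825398 to 32830037, stood at 153, 79.0, 456 and 82.6 TPM, then at 372, 413, 123 and 97.3 TPM. DNAAF1, on chromosome 6 from 4457283 to 4483641, stood at 52.4, 25.6, 135 and 24.3 TPM, then at 128, 134, 56.3 and 45.6 TPM. In both genes androstenone 3 and 4 were above controls 2 and 4, but control 3 was above every androstenone library. The log2 fold changes were 0.78 ± 0.60 for DNAAF1 and 0.55 ± 0.68 for ZMYND10 (SE), with adjusted p-values of 0.621 and 0.752 in edgeR.

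The docking complex fixes the outer arm to its doublet. TTC25, on chromosome 12 from 20766088 to 20791527, was at 52.4, 27.6, 227 and 39.6 TPM, then at 136, 147, 51.4 and 42.6 TPM. ARMC4, on chromosome 10 from 39276423 to 39463096, was at 63.2, 29.7, 205 and 34.6 TPM, then at 144, 165, 41.5 and 36.0 TPM. The means of the pair over all libraries were nearly equal at 90.4 and 89.8 TPM, with log2 fold changes of 0.28 and 0.38 and edgeR p-values of 0.708 and 0.618.

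CCDC39 and CCDC40 form the ruler that sets the repeat along the doublet, and DRC1 and CCDC65 belong to the nexin-dynein regulatory complex. DRC1, on chromosome 3 from 112581765 to 112621664, had 75.4, 34.9, 195 and 32.4 TPM, then 100.3, 112, 43.9 and 37.5 TPM. CCDC65, on chromosome 5 from 14949864 to 14958967, had 37.1, 19.99, 127 and 22.8 TPM, then 104, 115, 35.4 and 29.2 TPM. In DRC1 control 1 lay within 1.5-fold of androstenone 1 and 2, while in CCDC65 it lay with androstenone 3. Their log2 fold changes were -0.04 ± 0.62 and 0.61 ± 0.69 (SE), neither past the cutoff.

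Radial spokes pass signals from the central apparatus to the arms. ROPN1L, a spoke stalk protein on chromosome 16 from 43299 to 58569, stood at 177, 87.8, 611 and 95.1 TPM, then at 574, 603, 177 and 153 TPM. RSPH9, a spoke head protein on chromosome 7 from 38624942 to 38641410, stood at 44.1, 20.9, 111 and 15.2 TPM, then at 142, 159.6, 34.5 and 32.1 TPM. In RSPH9, androstenone 1 and 2 lay above control 3, and androstenone 3 and 4 lay below control 1. The log2 fold change of RSPH9 was 1.12 ± 0.75 (SE), with an unadjusted p of 0.171 and an adjusted p of 0.572 in edgeR, the smallest of the 42. ROPN1L had 0.80 ± 0.72, with an adjusted p of 0.669 in edgeR.

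In the central apparatus, CFAP46, a projection protein on chromosome 14 from 140916089 to 141002805, led with 82.9, 32.1, 227 and 34.0 TPM, then 107, 118, 40.4 and 37.3 TPM. SPAG16, which sits on the central pair and is encoded on chromosome 15 from 115809152 to 116760976, was far lower at 4.90, 2.72, 17.2 and 3.18 TPM, then 13.2, 14.3, 3.88 and 4.17 TPM. The value of SPAG16 in control 1 rested on 42 counts. Both genes were highest in control 3, and their log2 fold changes were -0.15 ± 0.68 and 0.49 ± 0.69 (SE).

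Tektins and inner proteins line the doublets, and CFAP43 and CFAP44 tether an inner arm. TEKT2, a tektin on chromosome 6 from 92233479 to 92238125, had 72.1, 33.7, 273 and 47.1 TPM, then 149.6, 159, 66.8 and 60.7 TPM. CFAP52, an inner protein on chromosome 12 from 54544699 to 54581778, had 54.9, 25.2, 118 and 16.0 TPM, then 121, 127, 28.3 and 23.8 TPM. For CFAP52, control 3 lay level with androstenone 1 and 2, and for TEKT2 it was clearly above them. Their edgeR p-values were 0.783 and 0.395.

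Of the 4 remaining genes, TPPP3, on chromosome 6 from 28045433 to 28051141, was the most abundant of all 42 with 404, 205, 1276 and 205 TPM, then 894, 960.3, 308 and 276 TPM. CFAP70, an outer arm associated protein on chromosome 14 from 76075269 to 76199898, had 39.3, 18.4, 129 and 22.4 TPM, then 45.2, 47.3, 25.6 and 21.5 TPM. CFAP70 thus reached in androstenone 1 and 2 little more than in control 1, while TPPP3 was there more than 2-fold above it. Their log2 fold changes were 0.38 ± 0.68 and -0.43 ± 0.61 (SE). Neither AK7, an adenylate kinase, nor CAPSL, a calcyphosine-like protein, passed the cutoff, with 0.14 ± 0.70 and 0.38 ± 0.72.

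Once the shared pattern was divided out, the make-up of the axoneme transcripts differed between the groups in places. The outer arm took 8.03%, 7.70%, 7.20% and 6.80% of the summed TPM of the 42 genes in control 1 to 4, and 5.56%, 5.38%, 5.39% and 5.34% in androstenone 1 to 4. The radial spoke took 17.3% to 19.4% in the controls and 19.7% to 21.6% in the androstenone treatment group, and the central apparatus 6.51% to 7.47% and 5.64% to 6.24%. In these 3 classes the groups did not overlap, and in the other 6 they did. The genes of a class did not all go one way. In the radial spoke, the mean share of ROPN1L and RSPH9 was higher after androstenone. That of RSPH1 (50.3 to 36.4 TPM per 1000 TPM) and RSPH4A (39.4 to 36.9) was lower. DNAI1 in the outer arm, and SPAG6 and SPAG16 in the central apparatus, had a higher mean share, unlike the rest of their class. For RSPH1, RSPH4A, DNAI1, SPAG6 and SPAG16, the shares of the 2 groups overlapped, so these differences in means lie within the spread of libraries. All shares were looked at after the levels were known and add up to a fixed total, so they are given as a description without a test.

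Among single genes, 12 of 42 had shares that did not overlap. The share of DNAH5 was 9.92, 8.09, 7.02 and 6.49 TPM per 1000 TPM of the summed genes in control 1 to 4, and 3.67, 3.63, 4.38 and 4.25 in androstenone 1 to 4, or 7.88 ± 1.51 against 3.98 ± 0.386 (SD, n = 4). The share of ROPN1L was 71.7, 75.3, 83.8 and 81.4 in the controls and 112.9, 108.8, 105.1 and 103.8 in the androstenone treatment group, or 78.1 ± 5.57 against 107.7 ± 4.10 (SD, n = 4). Both genes come from the 12 picked because their groups did not overlap, so a gap between their groups was fixed by that choice.

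The other genes with a lower share after androstenone were DNAI2 (36.0 to 23.0 as group means), DNAH9 (13.4 to 8.98), DNAH3 (6.79 to 4.84), SPEF2 (8.60 to 5.47), CFAP46 (30.3 to 22.9), DRC1 (28.7 to 22.9) and CFAP70 (17.1 to 11.8). Those with a higher share were RSPH9 (16.0 to 24.7), DNAAF1 (20.6 to 28.5) and CCDC65 (17.3 to 20.6). Of all genes tested, 1.88% had a ratio to the same sum that did not overlap. That percentage is not like for like, since the division removes the shared pattern from the 42 genes and adds it to most others. Divided by the geometric mean of the 42 genes, 13 did not overlap, 10 of them as before and in the same direction. Without both control 1 and control 4 there were 13 with the sum, but with fewer controls the groups separate more easily. The share over all genes is not given for either count, so neither adds support to the 12.

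**Figure D4:**
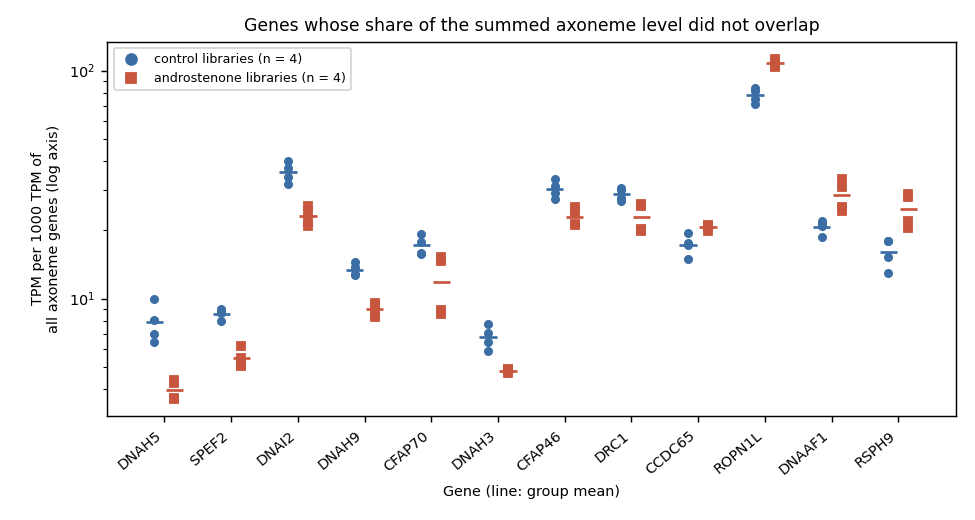
Share of each of the 12 genes whose groups did not overlap, in TPM per 1000 TPM of all 42 axoneme genes (log axis), for 4 control libraries (circles) and 4 androstenone libraries (squares), with a line at each group mean. The 8 genes on the left were lower after androstenone, DNAH5 with 7.88 against 3.98, and the 4 on the right were higher, RSPH9 with 16.0 against 24.7.

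Transcript length moved with these shares. Length was read as counts per TPM in androstenone 1, relative to the median gene, and ran from 0.244 in ROPN1L to 6.002 in DNAH5 with a median of 1.07. Of the 21 longer genes, 7 had a lower share after androstenone and 0 a higher one, and of the 21 shorter genes 1 had a lower and 4 a higher share. Across the 42 genes, the correlation of length with the deviation of the share from the other libraries was 0.42, 0.16, 0.53 and 0.33 in control 1 to 4 and -0.37, -0.32, -0.47 and -0.32 in androstenone 1 to 4 (Pearson's r on log2 values, n = 42 genes, which are not independent). Across 14608 genes, the same measure on the log2 CPM level was between 0.02 and 0.11 in the controls and between -0.13 and 0.01 in the androstenone treatment group. The part of length in the shares was not tested.

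The pattern over the libraries reached beyond the 42 genes. In a longer list of axoneme genes, 70 named and 64 matched, 59 genes had the same 3 highest libraries, against 15.1% of all genes, and 0 were called in either direction against 2.04% and 4.38% of all genes. Their median log2 fold change was 0.31, and their median SD fell from 1.07 to 0.24 when the profile of the 42 genes was subtracted. The smallest edgeR p in that list was 0.110 for DNAH14, a heavy chain that stayed between 0.0399 and 0.176 TPM, followed by FBXL13, a regulatory complex protein, with 1.80, 1.04, 3.67 and 0.725 TPM, then 6.24, 7.52, 1.28 and 0.924 TPM. PIERCE2, an inner doublet protein, had an adjusted p of 0.591 in edgeR.

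Intraflagellar transport carries axoneme parts along every cilium, motile or not. Of 29 such genes named, 27 matched, 26 had the same 3 highest libraries, against 15.1% of all genes. None was called by edgeR, with 0 higher and 0 lower against 2.04% and 4.38% of all genes and 0 at an unadjusted p below 0.05. Their sum ranged less, from 589 to 2123 TPM, or 3.61-fold, against 6.25-fold for the 42 genes. The lowest edgeR p-values were 0.181 for TTC21B, 0.188 for IFT27 and 0.236 for IFT56. TTC21B was the gene that kept another order, with 9.33, 7.91, 8.51 and 6.12 TPM, then 5.74, 6.64, 6.92 and 5.80 TPM.

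The regulators of multiciliated cells did not all follow the axoneme genes. Of 20 named, 19 matched, and 12 of these had the 3 highest libraries of the axoneme genes. FOXJ1, the main switch for axoneme genes, was at 227, 105, 356 and 73.2 TPM, then 403, 531, 140.0 and 127 TPM, with a log2 fold change of 0.82 ± 0.61 (SE) and an edgeR p of 0.215. RFX2 and RFX3, which act with FOXJ1, had 0.52 ± 0.65 and 0.67 ± 0.78, and TP73, a factor upstream of it, had 0.40 ± 0.52. None of these passed the cutoff, and each had its 3 highest libraries in control 3, androstenone 1 and androstenone 2, with FOXJ1 and RFX2 highest in androstenone 2 and RFX3 and TP73 in control 3.

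Some genes of basal body production were high in androstenone 1 and 2 but not to the same degree in control 3. MCIDAS, which starts the multiciliated programme, was at 6.21, 4.06, 14.3 and 2.80 TPM, then 79.2, 122, 7.08 and 6.35 TPM. CCNO, a cyclin needed for basal body amplification, was at 5.54, 1.94, 9.18 and 2.06 TPM, then 62.01, 87.3, 4.98 and 4.03 TPM. In both genes androstenone 3 and 4 lay below control 3, so the groups overlapped. The log2 fold changes were 3.13 ± 1.04 for MCIDAS and 3.25 ± 1.08 for CCNO (SE), with unadjusted edgeR p-values of 0.0157 and 0.0158 and an adjusted p of 0.416 for both. Neither call held in every fit. The unadjusted p of MCIDAS and CCNO was 0.0738 and 0.0770 in limma on log2(TPM + 0.1), and 0.0825 and 0.0865 in limma on log2(TPM + 1). The p-values were 0.124 and 0.113 in edgeR without both control 1 and control 4. With the replicate block they were 0.119 and 0.139 in edgeR, although same-numbered libraries come from different sows and were not taken as pairs.

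In all, 5 of the 19 regulators were called higher at the unadjusted cutoff, against 2.04% of all genes, and 0 lower. Besides MCIDAS and CCNO, these were the centriole duplication genes PLK4 (2.02 ± 0.60), CEP152 (1.04 ± 0.30) and STIL (1.57 ± 0.50). STIL is named here because it completed the 5. Like MCIDAS and CCNO, PLK4 (28.6 and 36.8 TPM) and STIL (24.3 and 29.97 TPM) were highest in androstenone 1 and 2. In androstenone 3 they had 6.16 and 9.14 TPM, below control 3 with 7.17 and 12.4 TPM. In androstenone 4, STIL was below control 3 and PLK4 just above it. In CEP152, androstenone 3 (2.05 TPM) lay below control 2 (2.52 TPM). MCIDAS, CCNO, PLK4 and STIL thus shared their high libraries, and the list was chosen with earlier results known. SASS6, which builds the centriole cartwheel, had 3.16, 4.36, 3.80 and 2.54 TPM, then 5.67, 6.23, 4.47 and 6.72 TPM. It was the single regulator of 19 whose groups did not overlap, near the 3.89% of all genes that did so with androstenone higher, with a log2 fold change of 0.85 ± 0.19 (SE), below the fold cutoff, and an adjusted p of 0.378 in edgeR. No regulator passed after adjustment, and 0.378 was the smallest adjusted p among them. The 5 calls became 8 without control 3, where the share called higher over all genes also rose, from 2.04% to 4.48%. They became 3 with the replicate number as a block, 2 with limma on log2(TPM + 0.1) and 0 without both control 1 and control 4. The shares over all genes in these other fits are not given here.

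**Figure D5:**
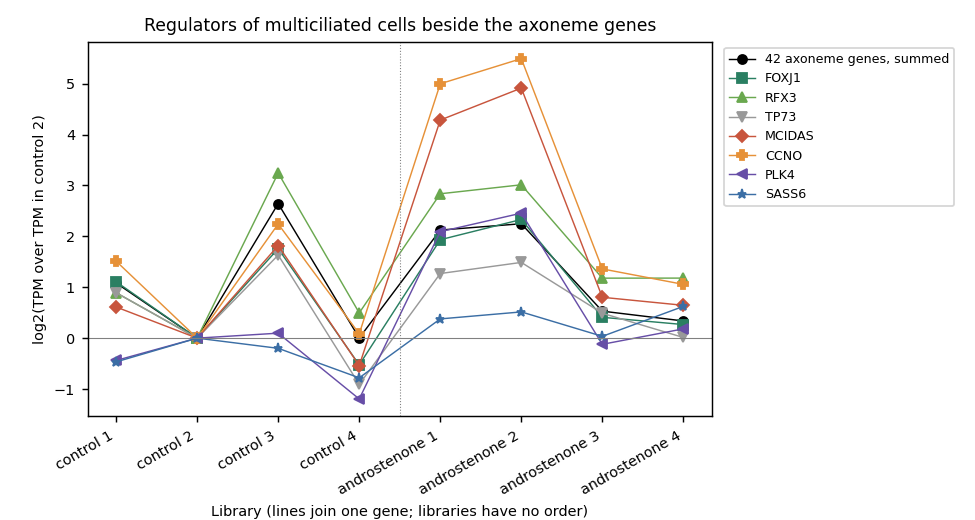
TPM of 7 regulators of multiciliated cells and of the 42 axoneme genes summed, in each of the 8 libraries, as log2 of the TPM over that in control 2, with lines joining a gene across libraries, which have no order. FOXJ1 and RFX3 share their 3 highest libraries with the axoneme genes, although FOXJ1 is highest in androstenone 2 (531 TPM) and not in control 3 (356 TPM), and MCIDAS and CCNO stand out in androstenone 1 and 2, where MCIDAS had 79.2 and 122 TPM against 14.3 TPM in control 3.

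Other tissue markers moved with the axoneme genes or apart from them. The epithelial genes EPCAM, CDH1, KRT8 and KRT18 summed to 1325, 853, 2265 and 486 TPM, then 2324, 2465, 1486 and 1010.2 TPM, with the same 3 highest libraries in 4 of 4 genes. The 3 matched goblet cell genes of 5 named, SPDEF, TFF3 and AGR2, summed to 920.5, 795, 2443 and 537 TPM, then 3184, 3873, 704 and 614 TPM, again with those 3 libraries highest in 3 of 3 genes. Gland markers, leukocyte markers and red cell markers did not share that order in any gene. Gland markers summed to 11467, 7905, 10425 and 2667 TPM, then 7004, 5717, 4895 and 3525 TPM. SCGB1A1 made up 9425 TPM of this sum in control 1 and 17.3 TPM in androstenone 4. Of the 6 gland markers matched, 4 had log2 fold changes above 0 and 2 below. Leukocyte markers summed to 138 to 327 TPM over all libraries. The basal cell genes TP63 and KRT15 were highest in androstenone 3, at 83.2 and 498 TPM. Whether the share of epithelium in the tissue pieces accounts for any of these levels was not tested.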

How the data were processed

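RNA-seq measured the OE in 8 libraries, 4 per group. The authors filtered the reads (fastp 0.23.1) and ran kallisto 0.48.0 against Ensembl release 108 transcripts of the Sscrofa11.1 pig genome. The deposited values are estimated counts, which need not be whole, and TPM, for every gene. How transcripts were summed to genes and whether strand was used were not given, so antisense reads cannot be told apart. Gene names matched 15527 of 22516 identifiers.

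Estimated counts were rounded. The 21318 genes with 1 count or more in all were scaled by TMM, and groups were compared by the quasi-likelihood test of edgeR 4.0.16 in R 4.3.3, with condition as the only term and Benjamini-Hochberg adjustment over all of them. Per-gene profiles used log2 CPM with a prior count of 2. Alternatives were RLE, library totals, filterByExpr, counts not rounded, the likelihood ratio test, DESeq2 1.42.0, limma 3.58.1 on log2 TPM with 0.1 or 1 added, a block for the replicate number, and libraries left out. The edgeR test was tested on simulated counts with independent libraries, whereas the real libraries were the left and right sides of 4 sows. No error rate for these data is taken from that simulation. The members and lists were chosen with earlier results of these data known. Named genes were, per class, the highest in mean TPM and the smallest in p, with 6 regulators and at most 3 genes of smallest p from each other list. Same-numbered libraries had deviations correlated at -0.0356, -0.498, -0.598 and 0.173, so numbers were not taken as pairs. Counting error is largest in control 1.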

Additional observations from a re-analysis of the deposited data

Results flagged for a closer look

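In the control group, control 3 lay far above the other 3 libraries in 10 genes by the gap to the nearest library over the range of the group, past Dixon's critical value for 4 libraries. The gap was 0.8403 of the range for DNAI1 and 0.8584 for DNAH7, both of dynein arms. It was 0.8756 for TTC25, 0.841 for CCDC65, 0.8291 for ROPN1L, 0.8619 for SPAG6 and 0.8496 for SPAG16. For the doublet proteins TEKT2 and CFAP53 it was 0.8392 and 0.8751, and for CAPSL 0.8526. Chance gives about 1 in 20 groups, and 10 of the 86 groups looked at were past the limit, none of them an androstenone group. The 42 genes move together, so these are not 10 separate findings.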

How the results depend on the processing

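No axoneme gene was called lower under any alternative, and none was called higher under any that kept control 3. Leaving out single libraries, the count called higher ran from 0 to 12, and 12 also passed p below 0.05 alone, all without control 3. The median log2 fold change ran from -0.0216 (without androstenone 2) to 1.23 (without control 3), and the log2 ratio of the sums from -0.14 to 1.10. Without both control 1 and control 4 the median was -0.17 and the ratio -0.29, so the sign of either value rests on single libraries. Regulators called higher were 4 to 8 with single libraries left out and 3 with the replicate block. They were 2 with limma on log2(TPM + 0.1), 2 with limma on log2(TPM + 1) and 0 without both control 1 and control 4. Over all genes, 2.04% were called higher with all libraries and 4.48% without control 3. For the other fits that share is not given, so these counts may also follow the fit. With the replicate block, the median log2 fold change of the axoneme genes was 0.51 and 0 were called. Of 306 values of the 17 named axoneme genes over 18 alternatives, 297 stayed on the same side of the cutoff, and the rest passed it without control 3 (smallest p 0.0138, DNAAF1, edgeR). The cause was not tested. The ratios to the summed genes and the regulator counts were added as alternatives after the data were seen.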
